A study of Homo sapiens with 4 samples.

Results

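Genes of sterol synthesis, fatty acid synthesis and their common regulators were followed in 2 human osteosarcoma cell lines exposed to OGE. The members were 35 genes chosen by name: 5 regulators of the SREBP transcription factors, 16 enzymes of sterol synthesis and 14 enzymes of fatty acid synthesis. Each was read from the platform's gene symbol, with the probe set of highest mean used where a gene had several. Of the 35, 33 were measured, among 18417 genes in all. No probe set carried FDFT1 in the annotation used, and the probe set listing HSD17B7 also lists the pseudogene HSD17B7P2. Neither gene therefore has an expression value of its own here.

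The groups were U2-OS cells with 600 μg/mL OGE, U2-OS cells with 0 μg/mL, HOS cells with 600 μg/mL and HOS cells with 0 μg/mL, each sampled after 24 h. Both are established lines grown from bone tumours, and each group is 1 array. The labels give OGE only as an abbreviation, and the stated question is its effect on the growth of these cells, followed here through gene expression. All values are log2 expression levels, so that a difference of 1 is 2-fold. The level of 1 gene is not set against that of another, because each probe set has its own response.

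With 1 array in each group no p-value exists within a line. A gene was called lower or higher by size when 2 arrays differed by at least 1 and the higher value reached the median of its array, which lay between 3.58 and 3.62. Across the lines, limma was fitted to all genes with the line as a block, which leaves 1 residual degree of freedom before moderation. Precision is limited by there being 4 arrays. Because the RNA was taken from whole cultures, fewer cells of one kind and less RNA per cell cannot be told apart.

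On each array 7 of 9 measured osteoblast and mesenchymal markers were at or above the array median, among them the collagen gene COL1A1, the matrix gene SPARC and VIM, while the bone sialoprotein gene IBSP lay between 1.94 and 2.51. These markers also differed with OGE, with medians of -0.59 in U2-OS and -0.17 in HOS. COL1A1 had changes of -1.75 and -0.94 and SPARC of -1.40 and -0.73. With RUNX2, 3 of the 9 were at least 1.5-fold lower in both lines, against 3.42% of all genes. The markers did not all fall, with 7 of the 9 below the untreated value in U2-OS and 6 in HOS. SP7 had changes of 0.10 and 0.38 and ALPL of 0.66 and 0.00. Markers of cells specialised for lipid synthesis were low. Of 5 genes marking adipocytes or hepatocytes only APOA1 passed the array median, and albumin (ALB) lay between 1.35 and 1.65. Their summed log2 levels were 12.26 in OGE-treated and 11.61 in untreated U2-OS cells, and 12.2 in OGE-treated and 12.25 in untreated HOS cells. Epithelial markers were not all low. Of 5, 4 were at or above the array median on each HOS array, 3 in untreated U2-OS cells and 2 in OGE-treated ones. The keratin genes KRT18 and KRT8 lay between 9.05 and 10.09 and between 7.84 and 9.38, and CDH1 between 1.82 and 2.46. Of 4 immune markers 1, the lysosomal gene CD68, passed the array median on each array, and of 3 endothelial markers none did. CD68 was at 5.55 with OGE and 4.20 without it in U2-OS, and at 5.86 and 4.81 in HOS. It was higher by size in both lines, as were 0.451% of all genes. The T cell gene CD3E and the leukocyte gene PTPRC were at 2.04 or below on every array.

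Sterols and fatty acids are both built from acetyl-CoA in the cytosol. When sterols run low in the endoplasmic reticulum membrane, the escort protein SCAP carries the SREBP proteins to the Golgi, where proteases release the part that enters the nucleus and switches on genes of both pathways. INSIG proteins hold SCAP back when sterols are plentiful. The product of SREBF2 acts mainly on sterol genes and that of SREBF1 mainly on fatty acid genes, and NF-Y, which binds the CCAAT box, commonly acts beside them.

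**Figure D1:**
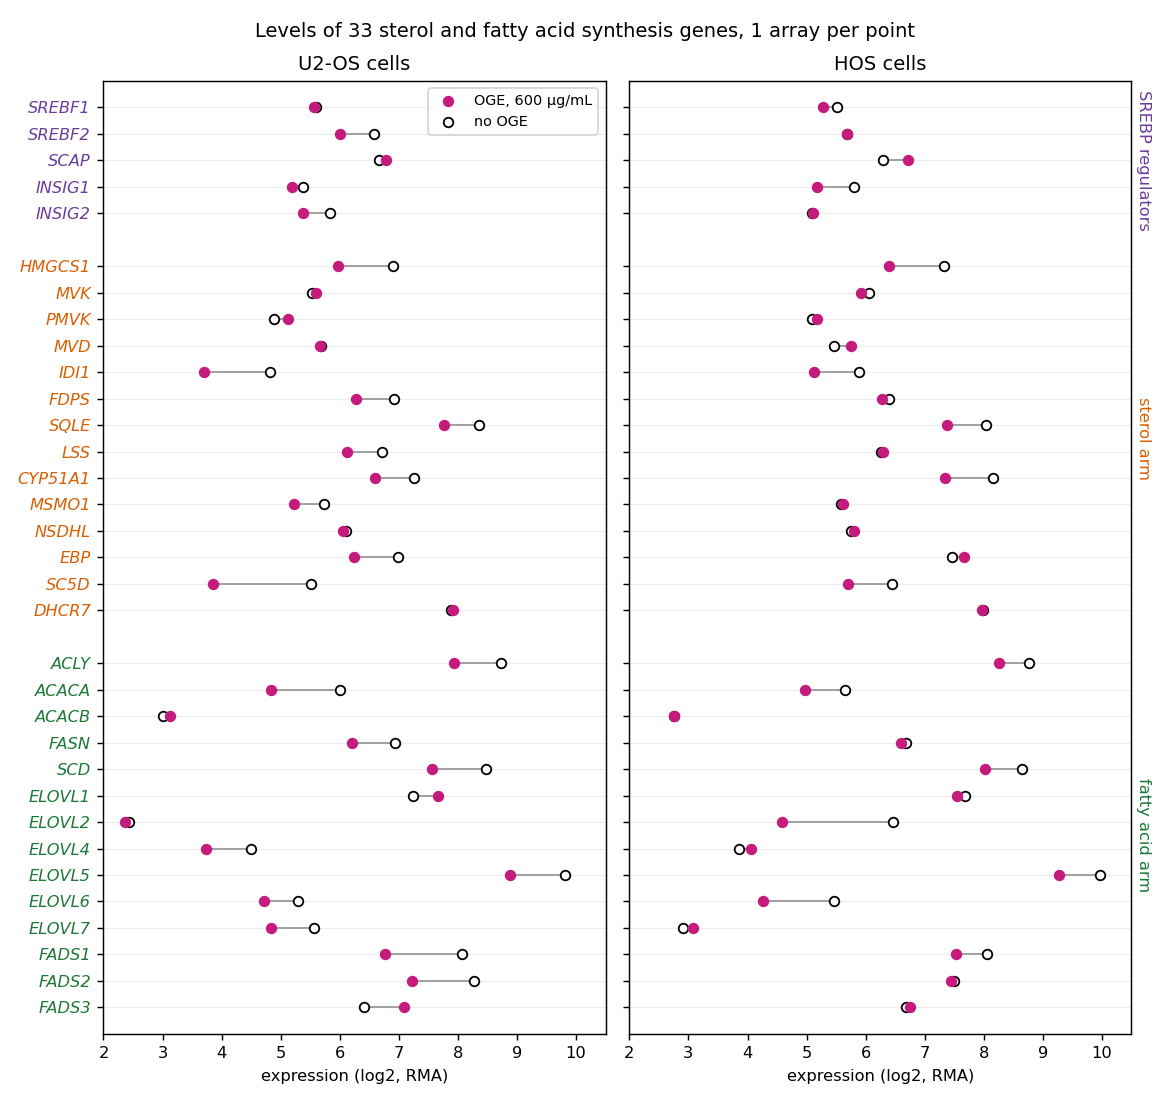
Log2 expression of the 33 measured genes in U2-OS cells (left panel) and HOS cells (right panel). Filled points are cells with 600 μg/mL OGE and open points cells without it, 1 array each, and the grey line joins them. In HOS the sterol genes divide into 5 with filled points well left of open ones and 9 whose points lie close together.

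With OGE, 17 of the 33 measured genes were below the untreated value in both lines and 3 above it in both, against 27.3% and 33.0% of all genes. Of the 33 genes, 29 had a mean level at or above the median of all genes, and among all genes of that level the shares were 32.9% and 34.5%. The median change was -0.59 in U2-OS and -0.12 in HOS, where all genes had medians of 0.03 and 0.02. The osteoblast and mesenchymal markers had medians near those of the members, -0.59 and -0.17, though not all of them were lower. Their part in these results was not tested.

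In 12 genes both OGE arrays lay below both untreated arrays, and in 3, SCAP, PMVK and FADS3, both lay above. The background was 15.0% of all genes lower in this way, or 18.2% at the median level, and 20.3% or 20.2% higher. The 12 were INSIG1 among the regulators, HMGCS1, FDPS and SQLE in the sterol arm, and ACLY, ACACA, FASN, SCD, ELOVL5, ELOVL6, FADS1 and FADS2 in the fatty acid arm. Counted in either direction, the OGE arrays did not overlap the untreated ones in 9 of 14 fatty acid genes, of which 8 were lower, in 4 of 14 sterol genes, of which 3 were lower, and in 2 of 5 regulators, 1 in each direction.

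By the 2-fold rule, 5 genes were lower in U2-OS, against 4.92% of all genes and 7.69% of those at the median level. These were IDI1, SC5D, ACACA, FADS1 and FADS2. In HOS 2 were lower, ELOVL2 and ELOVL6, against 1.34% and 2.25%. None was higher in either line, where the background was 1.84% of all genes and 2.94% of those at the median level in U2-OS, and 1.05% and 1.76% in HOS. No member was 2-fold lower in both lines, against 0.641% of all genes and 1.23% at the median level, and none was higher in both, against 0.451% and 0.836%. At 1.5-fold, 8 of the 33 were lower in both lines, against 3.42% of all genes and 6.41% at the median level, and none was higher, against 1.71% and 3.09%. Of the osteoblast and mesenchymal markers 3 of 9 were lower in this way. The 8 members were HMGCS1, IDI1, SQLE, CYP51A1, SC5D, ACACA, SCD and ELOVL5.

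Across the lines limma called 0 members for OGE at an adjusted p under 0.05, as it called 0% of all genes. At an unadjusted p under 0.05 limma had 11 members, all lower, against 8.52% of all genes lower and 13.9% of those at the median level. None of the members was higher at that p, against 5.67% and 8.51%. The smallest adjusted p of a member in limma was 0.228, so that no single change of a member with OGE passed the test.

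**Figure D2:**
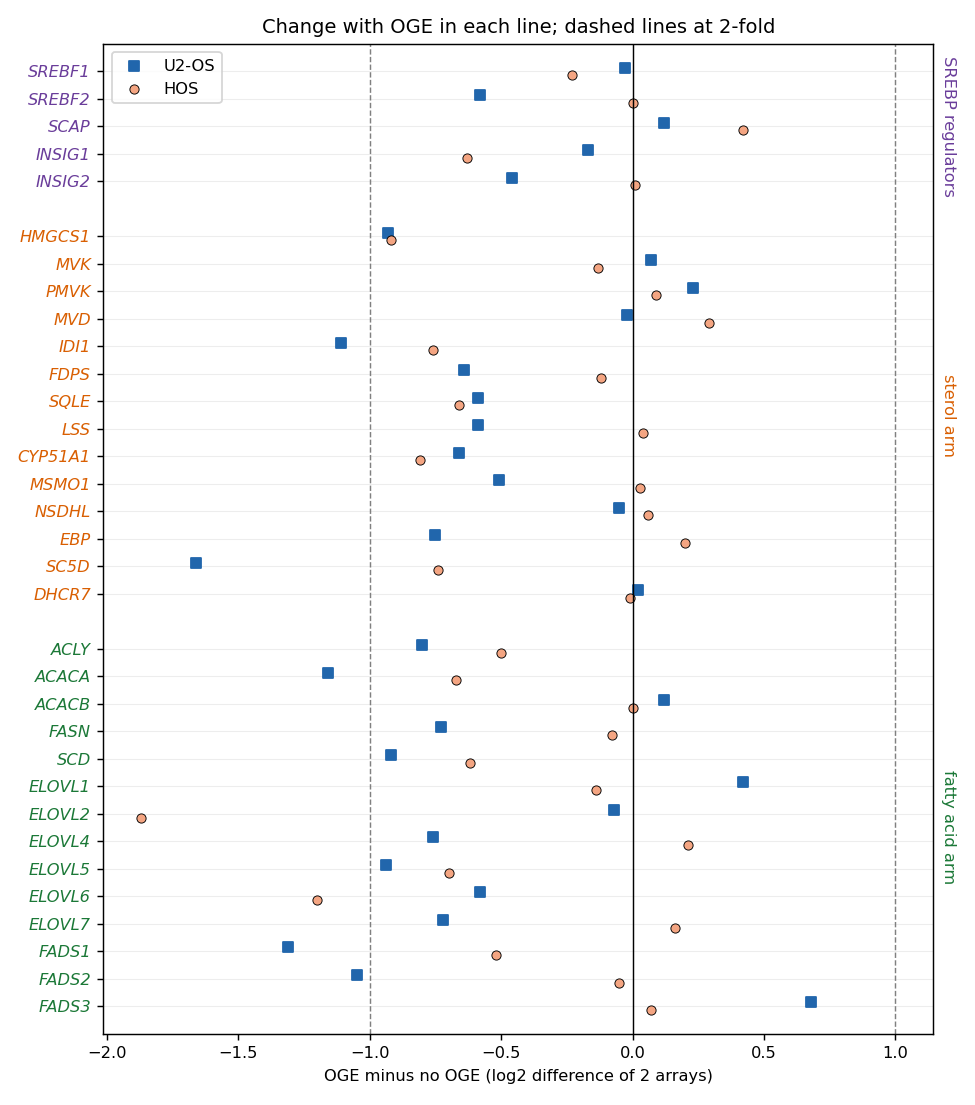
Log2 difference between the OGE array and the untreated array for each gene, with squares for U2-OS and circles for HOS. Dashed lines mark 2-fold, and in HOS only ELOVL2 and ELOVL6 lie left of the lower one.

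The regulators had median changes of -0.17 in U2-OS and 0.00 in HOS. SREBF2, which encodes the SREBP acting mainly on sterol genes, was at 6.0 in OGE-treated U2-OS cells, against 6.58 in untreated U2-OS cells. In HOS it was at 5.68 with OGE and at 5.68 without it. The difference of the lines' responses was -0.58, a value for which no residual was left to test it. SREBF1, which acts mainly on fatty acid genes, was at 5.57 with OGE and 5.60 without it in U2-OS cells, and at 5.28 and 5.51 in HOS cells. Its changes of -0.03 and -0.23 were small in both lines, and that in U2-OS had the opposite sign, 0.0075, after quantile normalization. SREBP activity depends on release of the protein from the membrane, which these arrays do not measure.

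SCAP, the escort, was the regulator with higher values in both lines, at 6.79 with OGE and 6.67 without it in U2-OS, and at 6.71 and 6.29 in HOS. Both of its OGE arrays lay above both untreated ones. INSIG1, itself a target of SREBPs, was at 5.20 with OGE and 5.37 without it in U2-OS, and at 5.17 and 5.80 in HOS. Its OGE arrays lay below the untreated ones, with a mean change of -0.40 ± 0.20 (SE from limma). INSIG2, which is not a usual SREBP target, was at 5.37 with OGE and 5.83 without it in U2-OS, and at 5.11 and 5.10 in HOS, so the HOS arrays differed by the smallest step of the data. None of the regulators differed 2-fold between treatments in either line, and their adjusted p in limma ran from 0.453 to 0.784.

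The upstream sequences of SREBF2 and INSIG1 are shown, the 2 regulators with a CCAAT box. Of these sequences only that of SREBF2 also holds a match to the sterol regulatory element. Each is the 250 bases before the gene's start in the RefSeq table of GRCh38.p14, read 5′ to 3′ on the gene's strand. SREBF2 lies on the plus strand at chr22:41832855-41833104 and INSIG1 on the plus strand at chr7:155297628-155297877. Capitals mark the sterol regulatory element, which holds TCACNCCAC, and the CCAAT box, which appears as ATTGG where it lies on the other strand.
SREBF2: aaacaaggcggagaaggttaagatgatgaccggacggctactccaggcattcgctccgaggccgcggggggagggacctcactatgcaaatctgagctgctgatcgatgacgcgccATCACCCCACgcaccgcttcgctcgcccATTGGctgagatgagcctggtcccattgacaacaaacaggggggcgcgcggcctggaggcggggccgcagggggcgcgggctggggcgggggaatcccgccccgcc
INSIG1: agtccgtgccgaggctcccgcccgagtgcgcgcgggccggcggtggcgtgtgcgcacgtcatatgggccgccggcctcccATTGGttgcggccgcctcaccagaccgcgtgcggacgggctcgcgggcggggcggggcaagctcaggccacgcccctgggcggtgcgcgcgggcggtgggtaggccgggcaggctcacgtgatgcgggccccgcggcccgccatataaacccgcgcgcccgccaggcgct
In SREBF2 the sterol element begins 134 bases before the start and the CCAAT box 106 bases before it, and in INSIG1 the CCAAT box begins 170 bases before it.

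Both strands of these windows were searched for the core of the sterol regulatory element, TCACNCCAC, and for CCAAT, the GC box GGGCGG and the E-box CACGTG. Of the 35 genes, 32 had an entry, and SQLE, FASN and FDFT1 did not. HSD17B7, which has no expression value of its own, had an entry and is counted here among the sterol genes. Among the 32, TCACNCCAC stood in SREBF2 alone, against 1.19% of measured genes with an entry and 0.883% of all windows of that length. A CCAAT box stood in 22 of the 32 genes, in 2 of 5 regulators, 12 of 14 sterol genes and 8 of 13 fatty acid genes. It was found in 40.4% of measured genes with an entry and in 32.0% of all windows. A GC box stood in 30 of the 32, against 63.7% of measured genes, and an E-box in 5, against 9.80%. These matches describe letters in 1 window and do not show binding. Only the letters given were searched, and only in these windows, so a missing match does not show that a gene lacks the element.

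In the sterol arm, the genes divided into those lower in both lines and those near their untreated level in HOS. Of 14 measured genes, 5 were at least 1.5-fold lower in both lines, with changes from -1.66 to -0.59 in U2-OS and from -0.92 to -0.66 in HOS. The other 9 had changes from -0.75 to 0.23 in U2-OS and from -0.13 to 0.29 in HOS. No HOS change lay between -0.66 and -0.13. The arm's median change was -0.59 in U2-OS and -0.065 in HOS.

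HMGCS1, the synthase that makes the HMG-CoA from which mevalonate is formed, had nearly equal changes in both lines. It was at 5.97 in OGE-treated and 6.90 in untreated U2-OS cells, and at 6.40 in OGE-treated and 7.32 in untreated HOS cells. Both OGE arrays lay below both untreated arrays. The changes of -0.93 and -0.92 are 0.525 and 0.529 of the untreated level, and their mean was -0.92 ± 0.17 (SE), with an adjusted p of 0.228 in limma.

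The 3 enzymes that turn mevalonate into isopentenyl diphosphate had small differences. MVK, mevalonate kinase, was at 5.60 with OGE and 5.53 without it in U2-OS, and at 5.92 and 6.05 in HOS. PMVK, the kinase of the next step, was at 5.12 and 4.89 in U2-OS and at 5.18 and 5.09 in HOS, and MVD, the decarboxylase, at 5.66 and 5.68 in U2-OS and at 5.76 and 5.47 in HOS. The changes of these 3 genes lay between -0.13 and 0.29, and that of MVD in U2-OS had the opposite sign after quantile normalization, at 0.0275.

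IDI1, the isomerase that makes the starting unit of the isoprenoid chain, was lower with OGE in each line. It was at 3.71 in OGE-treated and 4.82 in untreated U2-OS cells, and at 5.13 in OGE-treated and 5.89 in untreated HOS cells. The change in U2-OS, -1.11, passed the 2-fold rule, and that in HOS, -0.76, did not. The untreated U2-OS array lay below the OGE-treated HOS array, and the treatment groups overlapped across lines. FDPS, which joins isoprenoid units into farnesyl diphosphate, was at 6.28 with OGE and 6.92 without it in U2-OS, and at 6.27 and 6.39 in HOS.

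From squalene onward, SQLE, CYP51A1 and SC5D were the genes lower in both lines. SQLE, the epoxidase that is a control point after squalene, was at 7.76 with OGE and 8.35 without it in U2-OS, and at 7.37 and 8.03 in HOS. Its changes of -0.59 and -0.66 were alike in size, and the OGE arrays lay below the untreated ones. CYP51A1, the demethylase of lanosterol, was at 6.60 with OGE and 7.26 without it in U2-OS, and at 7.35 and 8.16 in HOS. It was the 1 member with more than 1 probe set, and the other gave -0.61 in U2-OS and -0.62 in HOS, against -0.66 and -0.81 for the one used.

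SC5D, a desaturase of the late sterol ring, had the largest change of any sterol gene. It was at 3.85 in OGE-treated and 5.51 in untreated U2-OS cells, and at 5.70 in OGE-treated and 6.44 in untreated HOS cells. The U2-OS change of -1.66 is 0.316 of the untreated level, and the HOS change of -0.74 is 0.599 of it. Their mean was -1.20 ± 0.27 (SE), with an adjusted p of 0.245 in limma.

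EBP, LSS and MSMO1 had changes of opposite sign in the lines, a difference that was not tested. EBP, a sterol isomerase, was at 6.24 with OGE and 6.99 without it in U2-OS, and at 7.66 and 7.46 in HOS. LSS, which closes the sterol rings, was at 6.12 and 6.71 in U2-OS and at 6.30 and 6.26 in HOS. MSMO1, a methylsterol oxidase, was at 5.23 and 5.74 in U2-OS and at 5.62 and 5.59 in HOS. In each the U2-OS value was lower with OGE, by changes from -0.75 to -0.51, while the HOS change was between 0.03 and 0.20. The HOS change of MSMO1 was -0.015 after cyclic loess.

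NSDHL, a dehydrogenase of the same demethylation, and DHCR7, a terminal reductase, stayed within 0.06 of the untreated value. NSDHL was at 6.05 with OGE and 6.10 without it in U2-OS, and at 5.81 and 5.75 in HOS, and DHCR7 at 7.91 and 7.89 in U2-OS and at 7.97 and 7.98 in HOS. Their adjusted p was 0.990 each in limma, which does not show that they were unaffected.

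Upstream sequences of 2 sterol genes that were lower in both lines, HMGCS1 and SC5D, are shown beside that of DHCR7, whose level stayed close to untreated. HMGCS1 is on the minus strand at chr5:43313413-43313662, SC5D on the plus strand at chr11:121292521-121292770 and DHCR7 on the minus strand at chr11:71448394-71448643. The RefSeq table lists 2 starts for each, and the one listed first is given. Capitals mark CCAAT or ATTGG.
HMGCS1: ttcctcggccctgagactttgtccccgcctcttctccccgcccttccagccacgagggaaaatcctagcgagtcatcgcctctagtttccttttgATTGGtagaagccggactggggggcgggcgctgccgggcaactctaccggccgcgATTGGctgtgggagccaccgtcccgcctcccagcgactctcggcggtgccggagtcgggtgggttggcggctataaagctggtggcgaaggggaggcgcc
SC5D: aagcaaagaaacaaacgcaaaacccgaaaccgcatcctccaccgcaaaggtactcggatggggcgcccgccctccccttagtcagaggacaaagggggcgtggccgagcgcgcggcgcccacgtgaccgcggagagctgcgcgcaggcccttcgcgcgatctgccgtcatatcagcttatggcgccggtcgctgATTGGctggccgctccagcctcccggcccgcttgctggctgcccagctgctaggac
DHCR7: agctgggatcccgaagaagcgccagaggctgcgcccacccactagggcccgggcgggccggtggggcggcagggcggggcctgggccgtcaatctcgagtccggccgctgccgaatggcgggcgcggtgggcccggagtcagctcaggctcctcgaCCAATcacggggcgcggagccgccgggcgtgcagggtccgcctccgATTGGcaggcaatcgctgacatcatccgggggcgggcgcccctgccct
For the start given, HMGCS1 and DHCR7 held 2 CCAAT boxes each and SC5D 1. A relation of the box to the change with OGE was not tested.

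In the fatty acid arm the median change with OGE was -0.745 in U2-OS and -0.32 in HOS. Below the untreated value were 11 of 14 genes in U2-OS and 10 of 14 in HOS, against 8502 and 8581 of all 18417 genes. By size 3 were lower in U2-OS, 2 in HOS and none in both, against 4.92%, 1.34% and 0.641% of all genes. At an adjusted p under 0.05 limma called none. The sterol arm's median was higher by 0.155 in U2-OS and by 0.255 in HOS. The changes ran between the 25th and 75th percentiles from -0.73 to -0.03 for sterol genes and from -0.94 to -0.20 for fatty acid genes in U2-OS, so the arms overlapped widely. In HOS they ran from -0.72 to 0.055 for sterol genes and from -0.66 to -0.01 for fatty acid genes. There the 25th percentile was lower in the sterol arm, although its median was higher. The gap between the medians of the arms was 0.27 in U2-OS and 0.445 in HOS when members below the median level were left out.

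ACLY, ACACA, FASN and SCD form the line from citrate to oleate, and each had both OGE arrays below both untreated arrays. ACLY, which makes cytosolic acetyl-CoA from citrate, was at 7.93 with OGE and 8.73 without it in U2-OS, and at 8.26 and 8.76 in HOS. ACACA, the carboxylase that makes malonyl-CoA for synthesis, was at 4.84 and 6.0 in U2-OS and at 4.98 and 5.65 in HOS. Its U2-OS change of -1.16 was 2-fold, and the mean over the lines was -0.92 ± 0.20 (SE), with an adjusted p of 0.243 in limma.

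FASN, the synthase of palmitate, was at 6.20 with OGE and 6.93 without it in U2-OS, and at 6.60 and 6.68 in HOS. The change of -0.73 in U2-OS stood beside -0.08 in HOS, where the arrays were close. SCD, which desaturates stearate to oleate, was at 7.56 with OGE and 8.48 without it in U2-OS, and at 8.02 and 8.64 in HOS, with changes of -0.92 and -0.62. ACACB, the mitochondrial carboxylase whose product restrains fatty acid oxidation, was below the array median on all 4 arrays, between 2.75 and 3.12, so that a decrease could hardly have been seen.

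The elongases, which add carbon units to fatty acids of different length and saturation, did not have 1 direction. ELOVL5 and ELOVL6 had lower values in both lines, while ELOVL1, ELOVL4 and ELOVL7 had opposite signs in the lines. ELOVL1, which extends saturated very long chains, was at 7.66 with OGE and 7.24 without it in U2-OS, and at 7.54 and 7.68 in HOS.

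ELOVL5, an elongase of polyunsaturated fatty acids, was at 8.88 with OGE and 9.82 without it in U2-OS, and at 9.27 and 9.97 in HOS. Both OGE arrays were below both untreated ones, and the mean change was -0.82 ± 0.18 (SE), with an adjusted p of 0.239 in limma. ELOVL6, which elongates palmitate to stearate, was at 4.71 with OGE and 5.29 without it in U2-OS, and at 4.27 and 5.47 in HOS. Its HOS change of -1.20 is 0.435 of the untreated level and its U2-OS change of -0.58 is 0.669 of it. The larger change was thus in HOS, where most other members had the smaller one.

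ELOVL2, which elongates the longest polyunsaturated chains, had the largest change of all members, in HOS. It was at 4.59 in OGE-treated and 6.46 in untreated HOS cells, a change of -1.87 or 0.274 of the untreated level. In U2-OS it was at 2.36 with OGE and 2.43 without it, below the array median in both, where little further decrease is measurable. The adjusted p over the lines was 0.426 in limma.

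ELOVL4, which makes very long chains in retina and skin, was at 3.73 with OGE and 4.49 without it in U2-OS, and at 4.06 and 3.85 in HOS. ELOVL7, an elongase of saturated chains, was at 4.84 with OGE and 5.56 without it in U2-OS, and at 3.07 and 2.91 in HOS, where both values lay below the array median. The changes of both genes were -0.76 and -0.72 in U2-OS and 0.21 and 0.16 in HOS.

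The front-end desaturases FADS1 and FADS2, which act in turn on polyunsaturated fatty acids, were 2-fold lower in U2-OS. FADS1 was at 6.76 with OGE and 8.07 without it in U2-OS, and at 7.53 and 8.05 in HOS. FADS2 was at 7.23 and 8.28 in U2-OS and at 7.44 and 7.49 in HOS. The U2-OS changes of -1.31 and -1.05 are 0.403 and 0.483 of the untreated level, and those in HOS were -0.52 and -0.05. FADS3, their homologue acting on sphingoid bases, was at 7.09 with OGE and 6.41 without it in U2-OS, and at 6.75 and 6.68 in HOS. It was the member with the largest higher value with OGE, 0.68 in U2-OS, which is 1.6 times the untreated level.

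The upstream sequences of 3 fatty acid genes that were lower in both lines are shown. SCD and ELOVL5 hold 2 CCAAT boxes each and ELOVL6 holds none, and here too no relation to the change was tested. SCD is on the plus strand at chr10:100346983-100347232, ELOVL5 on the minus strand at chr6:53348951-53349200 and ELOVL6 on the minus strand at chr4:110198616-110198865. Capitals mark CCAAT or ATTGG.
SCD: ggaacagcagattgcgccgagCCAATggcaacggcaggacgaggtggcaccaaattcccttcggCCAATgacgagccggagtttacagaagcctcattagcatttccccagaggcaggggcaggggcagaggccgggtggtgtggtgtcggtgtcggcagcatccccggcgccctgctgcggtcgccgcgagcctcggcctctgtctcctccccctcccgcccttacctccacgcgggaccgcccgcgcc
ELOVL5: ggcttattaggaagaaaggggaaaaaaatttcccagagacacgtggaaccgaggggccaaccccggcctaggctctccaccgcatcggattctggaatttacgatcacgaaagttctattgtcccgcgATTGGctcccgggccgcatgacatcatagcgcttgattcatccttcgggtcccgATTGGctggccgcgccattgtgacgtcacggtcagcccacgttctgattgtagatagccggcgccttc
ELOVL6: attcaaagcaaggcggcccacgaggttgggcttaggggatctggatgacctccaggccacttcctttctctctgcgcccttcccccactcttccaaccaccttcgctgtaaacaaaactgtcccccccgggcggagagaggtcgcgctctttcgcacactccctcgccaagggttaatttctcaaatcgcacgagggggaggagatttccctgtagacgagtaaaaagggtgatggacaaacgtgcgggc
The boxes begin 229 and 186 bases before the start in SCD and 122 and 68 bases before it in ELOVL5.

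**Figure D3:**
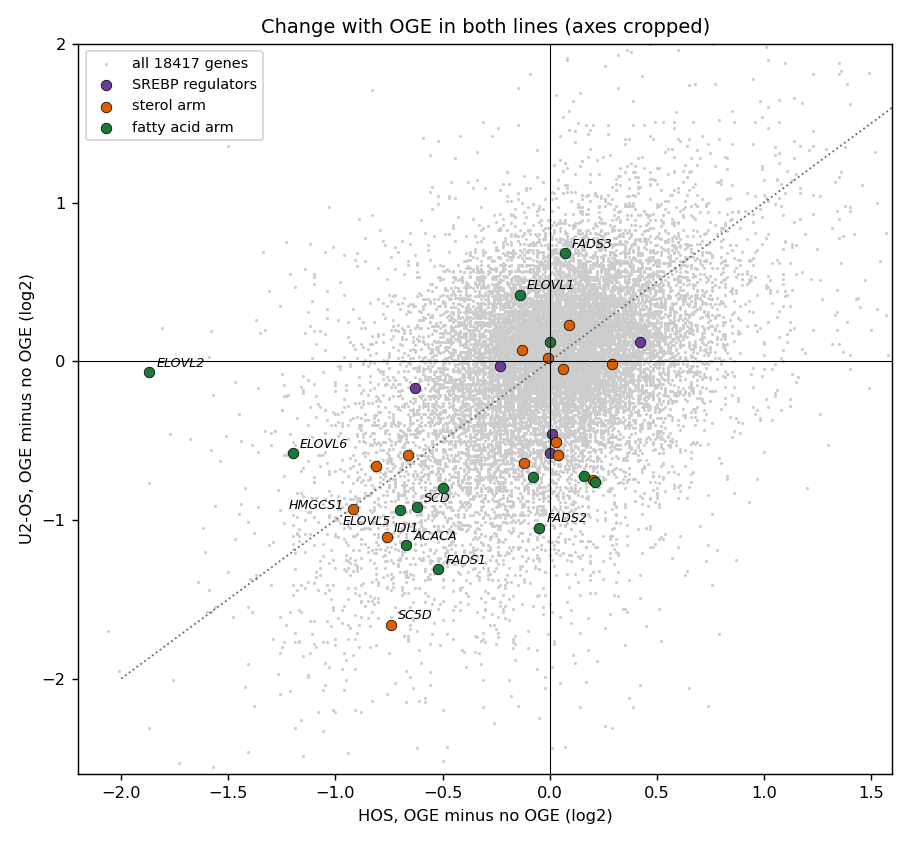
Log2 change with OGE in HOS (horizontal axis) and U2-OS (vertical axis), with all genes in grey and the 33 members coloured by arm. The dotted line marks equal changes. Coloured points fill the lower left and the lower middle, and ELOVL2 stands alone at -1.87 in HOS.

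The response was more negative in U2-OS than in HOS for 21 of 33 members, against 50.3% of all genes and 54.5% of those at the median level. The median of the U2-OS response minus the HOS response was -0.30 over members, -0.01 over all genes and -0.06 at the median level. FADS2 had a difference of -1.0, ELOVL4 of -0.97, EBP of -0.95 and SC5D of -0.92. On the other side stood ELOVL6 at 0.62 and FADS3 at 0.61, and ELOVL2 at 1.80, whose U2-OS values lay below the array median and bound that size poorly. HMGCS1 at -0.01, DHCR7 at 0.03 and SQLE at 0.07 had nearly equal responses. With 1 array per group these differences have no test.

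Between the lines, U2-OS and HOS had similar levels of most members. By the 2-fold rule in both treatment states, 1 member, ELOVL7, was higher in U2-OS and 2, ELOVL2 and IDI1, were lower, against 1.80% and 1.91% of all genes, or 2.94% and 3.03% at the median level. At an adjusted p under 0.05 limma called ELOVL7 alone, higher in U2-OS, against 0.885% of all genes called higher and 1.04% lower, or 1.39% and 1.57% of those at the median level. The median difference over members was -0.14 with OGE and 0.02 without it.

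ELOVL7 was higher in U2-OS by 1.77 with OGE and by 2.65 without it, with a mean of 2.21 ± 0.27 (SE) and an adjusted p of 0.044 in limma. The call was lost when treatment was left out of the model. Its mean level was below the median of all genes, and its HOS values lay below the array median, so that the size there is poorly bounded. ELOVL2 differed by -2.23 with OGE and -4.03 without it, with an adjusted p of 0.056, and IDI1 by -1.42 and -1.07, with an adjusted p of 0.059, both in limma. The U2-OS values of ELOVL2 lay below the array median, so that its difference too is poorly bounded. SC5D differed by -1.85 with OGE and -0.93 without it, CYP51A1 by -0.75 and -0.90, and EBP by -1.42 and -0.47. These 4 sterol enzymes had lower values in U2-OS in both states, and IDI1, SC5D and EBP by more with OGE than without it.

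Both SREBF genes and INSIG2 had U2-OS arrays above the HOS arrays in both states. SREBF2 differed by 0.32 with OGE and 0.90 without it, INSIG2 by 0.26 and 0.73, and SREBF1 by 0.29 and 0.09. In all, U2-OS arrays lay above HOS arrays for 6 members and below for 7, against 19.8% and 23.0% of all genes, or 22.2% and 25.0% at the median level.

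**Figure D4:**
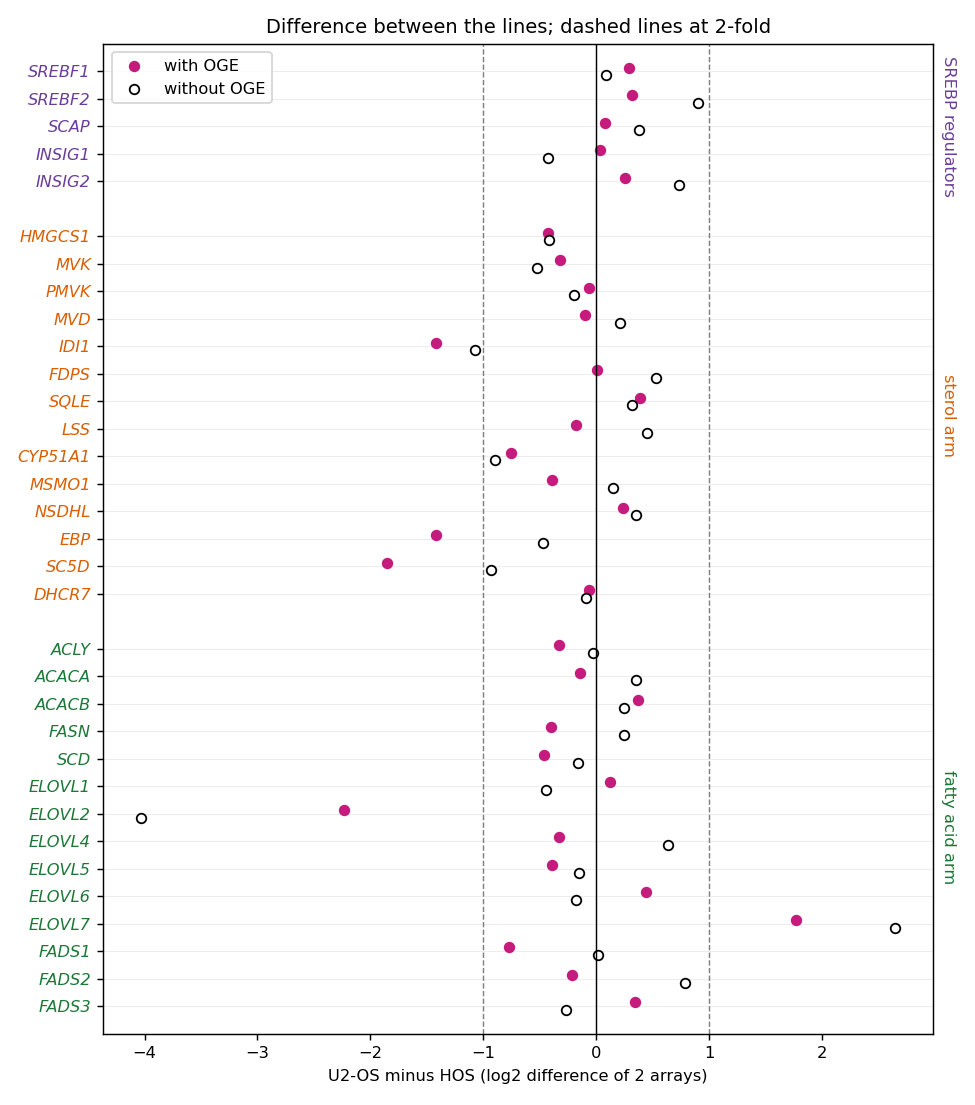
Log2 difference of U2-OS minus HOS for each gene, with filled points for OGE-treated cells and open points for untreated cells. Dashed lines mark 2-fold. Points for most genes lie between the lines, with ELOVL2 at -2.23 and -4.03 and ELOVL7 at 1.77 and 2.65.

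Other genes of the same pathways were read from further lists. Of 15 further sterol genes, 14 were measured, with a median change of -0.48 in U2-OS and -0.43 in HOS. By size 2 were lower and 1 higher in U2-OS, against 4.92% and 1.84% of all genes, or 7.69% and 2.94% at the median level. In HOS 1 was lower, against 1.34% and 2.25%, and such small lists bound these shares poorly. LBR, a lamin-binding protein that is also a sterol reductase, was at 7.64 with OGE and 9.22 without it in U2-OS, and at 7.94 and 9.10 in HOS. It was lower by size in both lines, which none of the 33 genes was, against 0.641% of all genes and 1.23% at the median level. ACAT2, which makes acetoacetyl-CoA for HMGCS1, had changes of -1.09 and -0.80, and the sterol carrier STARD4 of -0.92 and -0.48. NPC1, which exports cholesterol from lysosomes, had changes of 1.49 in U2-OS and 0.20 in HOS.

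Of 21 further fatty acid genes, 18 were measured, with medians of -0.125 in U2-OS and -0.16 in HOS. Of these, 2 were lower by size in U2-OS and none in HOS, against 4.92% and 1.34% of all genes. None was higher, against 1.84% in U2-OS and 1.05% in HOS. Enzymes that work with the ELOVL proteins in each round of elongation did not have 1 direction. HSD17B12, the ketoacyl-CoA reductase, had changes of -1.01 in U2-OS and -0.73 in HOS, the dehydratase HACD2 of -1.03 and -0.68, and HACD3 of -0.95 and -0.55. TECR, the reductase of the last step, had changes of -0.25 and 0.45, and HACD4, at 1.29 or below on every array, of -0.13 and -0.20, both named after their values were seen. ACSL1, which activates fatty acids with CoA, had changes of -0.15 and -0.95.

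LXR receptors sense oxysterols and switch on cholesterol efflux genes. Of 6 genes listed, 5 were measured, and MYLIP was the 1 higher by size in both lines. The background was 0.451% of all genes and 0.836% at the median level. MYLIP, a ubiquitin ligase that degrades lipoprotein receptors, was at 7.29 with OGE and 6.11 without it in U2-OS, and at 6.56 and 5.41 in HOS. Its mean change was 1.16 ± 0.17 (SE), with an adjusted p of 0.228 in limma. ABCG1, a cholesterol exporter whose HOS values lay below the array median, had changes of -0.10 in U2-OS and -0.06 in HOS. LPCAT3 had changes of -0.54 and -0.38 and NR1H3, an LXR gene, of -0.24 in U2-OS and 0.71 in HOS.

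Gene span moved with the OGE change across the arrays. With genes of at least median level put into 4 bins by span, the bin of shortest span had a median change of 0.19 in U2-OS and 0.12 in HOS, and the bin of longest span of -0.29 and -0.14. Fatty acid genes had a median span of 57.3 kb and sterol genes of 21.2 kb, and the 12 members with OGE arrays below untreated ones of 24.9 kb, against 22.7 kb for the other members. The part of gene span in these results was not tested.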

How the data were processed

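Expression was measured in 4 samples on single-colour arrays, 1 per group. The deposited values are log2 expression levels, 1 for each probe set. RMA is the tool named, without a version, in the submitters' processing notes. The log base was taken from the range of 0.16 to 13.41, and values carry 2 decimals. RMA assumes that most genes do not shift together and draws low signals closer.

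Of 33297 probe sets, 19460 had 1 gene symbol in the platform annotation, 1754 several and 12083 none. Of those with 1, 19429 had a gene ID in RefSeq's table for GRCh38.p14 and 31 kept the platform's symbol. The probe set of highest mean stood for each of 18417 genes. For the probe sets' genome build, the sources used here say nothing. Promoter sequences are RefSeq's.

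limma 3.58.1 in R 4.3.3 was fitted to all genes with line and OGE as terms (3.55 prior degrees of freedom), with Benjamini-Hochberg adjustment over all genes and a threshold of 0.05. The fit was tried on simulated data with noise set far below that of these arrays, which does not show how it performs on them. The cell line pairs the treated and untreated arrays, so the block is part of the model. Separate cultures are not stated in the labels. The residual of this fit is the difference between the lines' responses to OGE, moderated over all genes. The p-values and SE therefore reflect how far the lines disagreed, part of which may be technical, and not the spread of repeated cultures. No batch could be tested.

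The members, the lists and the tests were chosen with earlier results of these data known. All 35 members are named where measured, and of each other list up to 4 genes with the largest mean change, besides markers. Alternatives were quantile and cyclic loess normalization, the mean of probe sets, other thresholds and floors, and other limma settings.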

Additional observations from a re-analysis of the deposited data

Results flagged for a closer look

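In 9 members the change with OGE had opposite signs in the lines, each by more than the rounding of a difference. The size given is the U2-OS response minus the HOS response, from 1 array per group, and the difference was not tested. Lower with OGE in U2-OS and higher in HOS were EBP with a difference of -0.95, ELOVL4 with -0.97, ELOVL7 with -0.88, LSS with -0.63, MSMO1 with -0.54, MVD with -0.31 and NSDHL with -0.11. Higher in U2-OS and lower in HOS were ELOVL1 with 0.56 and MVK with 0.20. The signs of MVD and NSDHL in U2-OS turned after quantile normalization, to 0.0275 and 0.02, and that of MSMO1 in HOS turned after cyclic loess, to -0.015. With changes within rounding included, 11 of 33 members had opposite signs, against 37.1% of all genes and 30.7% of those at or above the median level, so the count is near the background.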

How the results depend on the processing

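Of 94 alternatives to the reported counts and medians, 76 were labelled as unchanged, under a loose tolerance. The HOS median of the fatty acid arm was so labelled at -0.51 among members at the median level, against -0.32 as reported. The mean of probe sets could move size counts and arm medians only through CYP51A1, the 1 member with more than 1 probe set. The tally of 76 is therefore no measure of how firm the results are. For OGE, limma called 0 members under each of the 7 alternatives tried. The smallest adjusted p of a member in limma ran from 0.062 after quantile normalization to 0.761 with no replicate block. At an unadjusted p under 0.05 limma had 7 to 12 members. The share of all genes at that p was not determined for the alternatives. Between the lines limma called 1 member as reported, 4 after quantile normalization, after cyclic loess and with trend and robust moderation, 2 among genes at or above the median level, 5 with noise within the rounding step and 0 with no replicate block, and the cause was not tested. Those 4 were ELOVL2, ELOVL7, IDI1 and SC5D. For the line difference limma called 354 of all 18417 genes as reported, 1763 after quantile normalization and 1326 after cyclic loess. It called 1309 with trend and robust moderation, 1454 with noise within the rounding step and 131 with no replicate block. With genes below the median level left out, it called 749 of 9209. The members' counts thus moved with those of all genes. Fitted to all genes, limma called 264 for OGE after quantile normalization, no member among them.

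Counts by size follow the threshold. At 1.5-fold, 17 members were lower and 1 higher in U2-OS, 11 lower in HOS and 8 lower in both lines. Between the lines, 4 were lower in U2-OS than in HOS in both states. Of all genes, 3.42% were 1.5-fold lower in both lines, or 6.41% at the median level. At 3-fold, 1 was lower in U2-OS, 1 in HOS and 1 in U2-OS than in HOS. For the other counts at 1.5-fold and 3-fold the share of all genes was not determined, so they have no background. With a floor of each array's 75th percentile, 0 differed between the lines in either direction. The sterol arm's median minus that of the fatty acid arm was 0.27 in U2-OS and 0.445 in HOS over members at or above the median level. Under no alternative did a median of either arm change sign. No array could be left out, since each group holds 1.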

Other observations

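Genes that burn or store fatty acids did not share 1 direction. Of 13 beta-oxidation genes, ACADM, the medium-chain dehydrogenase, was lower by size in both lines, against 0.641% of all genes. It was at 3.60 with OGE and 6.09 without it in U2-OS and at 4.99 and 6.14 in HOS. DECR1, a reductase needed to oxidise unsaturated chains, had changes of -0.96 and -0.91, the carnitine carrier SLC25A20 of -1.05 and -0.08, and PPARA of -0.52 and -0.29. Below the array median were SLC25A20 in OGE-treated U2-OS cells, at 2.6, and PPARA on both HOS arrays, at 3.16 and 3.45. The list's median was -0.40 in U2-OS and -0.10 in HOS. Of 10 measured lipid droplet genes, PLIN2, which coats droplets, was higher by size in both lines, against 0.451% of all genes. It was at 7.76 with OGE and 4.44 without it in U2-OS and at 7.41 and 5.90 in HOS. PNPLA2, a droplet lipase, had changes of 0.39 and 0.33, CIDEC of 0.29 and 0.37, and PLIN4 of 0.44 in U2-OS and -0.09 in HOS. CIDEC lay below the array median on all 4 arrays, between 2.77 and 3.14. The list's median was 0.26 and 0.23.

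AMPK, the kinase that inhibits acetyl-CoA carboxylase when energy is short, had 7 subunit genes measured. The beta subunits had higher values with OGE, PRKAB1 at 7.04 with OGE and 5.64 without it in U2-OS and at 6.49 and 5.70 in HOS, and PRKAB2 with changes of 0.79 and 0.47. The catalytic PRKAA2 had changes of -0.97 and -0.16, and PRKAG2, whose U2-OS values lay below the array median, of -0.15 and -0.39. None of these genes passed limma over all genes, where the smallest adjusted p was 0.228.

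The probe set that lists both HSD17B7 and HSD17B7P2 was at 3.29 with OGE and 3.71 without it in U2-OS, and at 3.41 and 4.32 in HOS, and its signal cannot be assigned to either.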
